A study of Homo sapiens with 4 samples.

Results

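The short arm of chromosome 18 (18p) was described here through ribosome-protected footprints of A375, an established human melanoma cell line. The rows taken were all those of the deposited count table that lie on chromosome 18 with a largest end at or under 15000000, taken as an arm whose gene places are the same in GRCh37 and GRCh38, which was not checked against a genome here. This gave 466 of 78724 rows. Of these, 378 held no read, 43 held 1 to 19 reads and 45 held 20 or more over the 4 libraries, the minimum for testing. By place, 65 of the 466 rows were named as protein-coding genes, and 43 of the 45 tested rows were protein-coding. Just inside the minimum lay PRELID3A with 23 reads and IMPA2 with 27, and just outside it COLEC12 with 16 and GACAT2 with 18. The last row inside the arm's limit ends at 14993235 and the first row past it begins at 15003975, with 0 and 1 reads.

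Cells were kept for 48 h either in control medium, which holds arginine, or in a medium prepared with every amino acid but arginine, and 2 footprint libraries were sequenced from each group. The labels name no genetic change, and each result is that of 1 line. Library totals ran from 105004 to 234766 reads, and 2009 and 4003 reads lay on 18p in control replicates 1 and 2, against 4617 and 2892 in arginine-free replicates 1 and 2. Whether replicates were separate cultures is not given in the labels, and the tests therefore cover the spread of the 4 libraries alone, part or all of which may be technical. Of 3 markers of melanocytes, TYRP1 held 16 and 25 reads in control replicates 1 and 2 against 1 and 0 in arginine-free replicates 1 and 2, and MLANA 6 and 10 against 0 and 2. TYRP1, the only 1 of the 3 with enough reads to be tested, passed as lower (log2 fold change -5.39, SE 0.77, edgeR adjusted p = 2.07e-05), and SLC45A2 held 2 reads in all. Together the 3 markers held 22 and 37 reads in control and 1 and 2 in arginine-free libraries, a difference that moves with the results below and whose part in them was not tested.

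A footprint is the stretch of mRNA covered by a translating ribosome, so its count reflects both how much of an mRNA there is and how often it is translated, and footprints alone cannot tell these apart. Fewer cells in a given state and fewer footprints per cell cannot be told apart either. Arginine is an amino acid that most cells make from citrulline through the enzyme ASS1, and tumours without ASS1 depend on arginine from outside. The arm carries genes of unrelated roles, among them TYMS, which makes the thymidylate used in DNA synthesis, NDC80, which ties chromosomes to spindle microtubules, LAMA1, a chain of basement membrane laminin, and TGIF1, a repressor of TGF-beta signalling.

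Most protein-coding rows of 18p held reads. Of 65 protein-coding rows on the arm 18.5% were at 0, against 87.2% of 195 on the rest of the chromosome and 72% of 18633 other nuclear rows. Rows with 20 or more reads made up 66.2% on 18p and 1.54% on the rest of the chromosome. Reads were mapped to GRCh37 by the submitters' processing notes, whereas the places of the rows match those of GRCh38. Of the 12 genes in a list of those mainly used by other tissues, such as CETN1 in testis, MC2R in the adrenal gland and CIDEA in brown fat, 8 were at 0 and the other 4 held 7 reads together. These 8 were also 8 of the 12 protein-coding rows at 0, the rest being AKAIN1, APCDD1, SLC35G4 and LOC124904253.

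**Figure D1:**
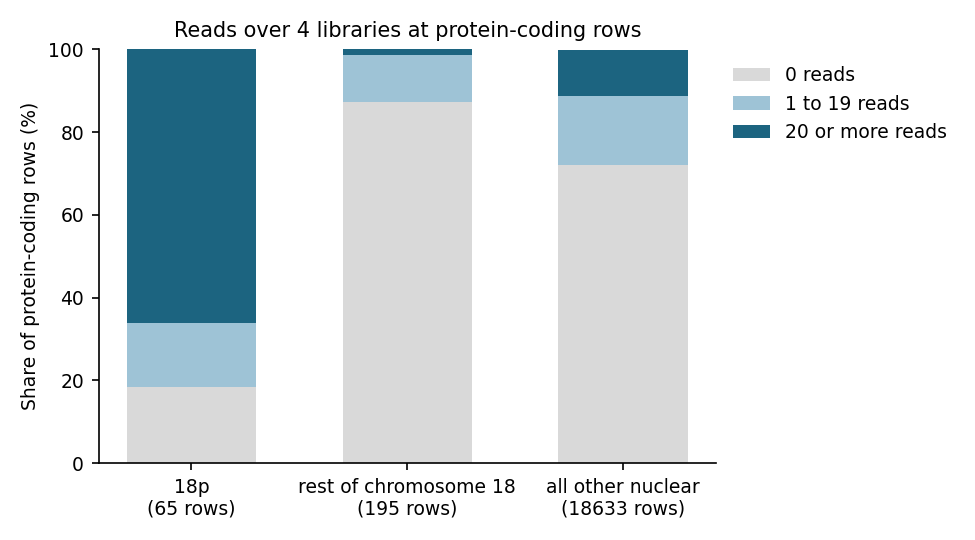
Share of protein-coding rows (%, vertical axis) with 0, 1 to 19 and 20 or more reads over the 4 libraries, for 18p, the rest of chromosome 18 and all other nuclear rows. On 18p 66.2% of 65 rows reached 20 reads, against 1.54% of 195 on the rest of the chromosome.

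A sequence window from 250 bases before to 50 bases after a RefSeq gene start (GRCh38.p14) was at hand for 38 of the 43 tested protein-coding rows. The windows of NDC80 and METTL4 are shown because these neighbours start 48 bases apart on opposite strands and moved in opposite directions, that of TGIF1 because its row rose most among the protein-coding genes, and that of PIEZO2 because its row fell. They are written 5′ to 3′ on each gene's own strand, at chr18:2571307-2571606 (plus) for NDC80, chr18:2571456-2571755 (minus) for METTL4, chr18:3411759-3412058 (plus) for TGIF1 and chr18:11149520-11149819 (minus) for PIEZO2. Capitals mark matches, on either strand, to CCAAT (the CCAAT box), to TTTGAA (a form of the cell cycle homology region found in promoters of mitotic genes) and to TGATGNAA (the core of the amino acid response element). The 3 motifs do not overlap each other in these windows.
NDC80: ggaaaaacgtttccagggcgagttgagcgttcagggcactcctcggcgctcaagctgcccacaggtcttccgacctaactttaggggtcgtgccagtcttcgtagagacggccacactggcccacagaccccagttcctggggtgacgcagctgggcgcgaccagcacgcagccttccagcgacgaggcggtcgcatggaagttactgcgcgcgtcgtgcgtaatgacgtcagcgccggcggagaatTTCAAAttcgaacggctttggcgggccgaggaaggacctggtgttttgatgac
METTL4: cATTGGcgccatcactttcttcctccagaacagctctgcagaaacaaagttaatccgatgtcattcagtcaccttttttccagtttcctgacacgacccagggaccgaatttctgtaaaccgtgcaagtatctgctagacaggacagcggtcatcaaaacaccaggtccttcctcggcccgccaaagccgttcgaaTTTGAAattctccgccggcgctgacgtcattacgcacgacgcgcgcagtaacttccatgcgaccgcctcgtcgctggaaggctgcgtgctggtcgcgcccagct
TGIF1: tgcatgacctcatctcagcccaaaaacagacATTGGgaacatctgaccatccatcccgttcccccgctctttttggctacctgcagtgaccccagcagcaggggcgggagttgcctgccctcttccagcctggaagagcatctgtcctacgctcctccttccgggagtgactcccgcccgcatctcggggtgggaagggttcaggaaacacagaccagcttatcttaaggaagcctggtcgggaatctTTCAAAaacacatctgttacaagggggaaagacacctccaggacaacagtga
PIEZO2: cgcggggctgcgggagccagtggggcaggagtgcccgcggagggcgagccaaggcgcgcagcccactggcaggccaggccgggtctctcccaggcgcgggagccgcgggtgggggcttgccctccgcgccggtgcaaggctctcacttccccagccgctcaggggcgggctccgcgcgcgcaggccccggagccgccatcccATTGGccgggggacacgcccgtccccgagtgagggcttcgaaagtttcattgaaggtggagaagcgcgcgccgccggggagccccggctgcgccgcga

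The NDC80 and METTL4 windows share 151 bases, and the TTTGAA match in both is the same site at chr18:2571554-2571559, which lies -3 bases from the NDC80 start and -54 from that of METTL4. Over all 38 windows, TTTGAA was found in 26.3%, CCAAT in 23.7% and TGATGNAA in 2.63%, against 15.2%, 34.6% and 3.62% of 35116 windows of the same length in the table. Of the 6 windows of lower genes 2 held TTTGAA, as did 3 of the 5 of higher genes and 5 of the 27 of genes not past the threshold. The TGATGNAA match lay in the window of PTPN2, whose RefSeq start is inside the interval of its row. On the minus strand, its window ends at 12841212 and its row at 12884338. The windows of DLGAP1 and SPIRE1 end at 3875010 and 12636602, also far inside rows that end at 4455307 and 12658107. These windows supplied counted matches too, TTTGAA in PTPN2 and SPIRE1 and CCAAT in DLGAP1 and SPIRE1. Which start was in use was not tested. A match to these letters is a description of the window and not a site in use. The 38 windows had a median GC content of 72% and a median of 33 CpG, against 58.7% and 14 over the whole table.

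**Figure D2:**
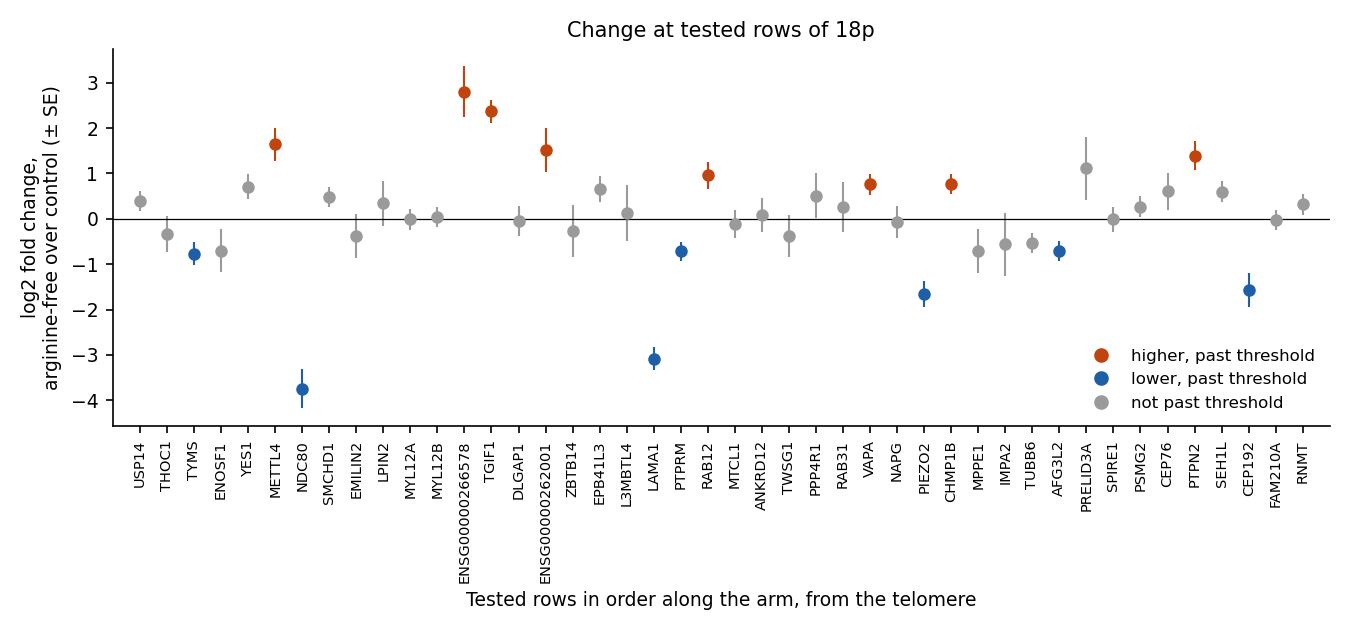
Log2 fold change of footprints, arginine-free over control, with its standard error (vertical axis), for tested rows of 18p in their order along the arm (horizontal axis). The 8 higher rows and the 7 lower rows are spread along the arm, and NDC80 (-3.75) stands beside METTL4 (1.64).

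Over the arm, 15 of 45 tested rows (33.3%) passed the threshold in the edgeR quasi-likelihood test, which sets arginine-free against control libraries with Benjamini-Hochberg adjustment over the 3334 tested rows of the whole table at 0.05. Among all tested rows, 26.7% were called, 13% higher and 13.7% lower, so the share on 18p lay near the background. Of the 15, 8 were higher in arginine-free medium and 7 lower. With scaling factors taken from 18p rows alone, which moved the median log2 fold change of all rows from -0.02 to -0.16, the split was 5 higher and 7 lower. Groups that did not overlap in any library were found at 18 rows in the higher and 12 in the lower direction, 40% and 26.7% of the 45, against 31.9% and 31.4% over all tested rows. Over the 45 rows the median log2 fold change was 0.04, and 23 were above 0. The 30 rows not past the threshold had log2 fold changes from -0.71 to 1.11.

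The number of calls depended on the tool and on the libraries kept, as it did over all tested rows. DESeq2 called 3 rows higher and 3 lower, against 5.19% and 5.43% of all tested rows (10.6% in either direction). Without control replicate 1, control replicate 2 or arginine-free replicate 2, the edgeR test called fewer rows, both on 18p and over all tested rows. Each of these fits kept 1 library in the group concerned.

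**Figure D3:**
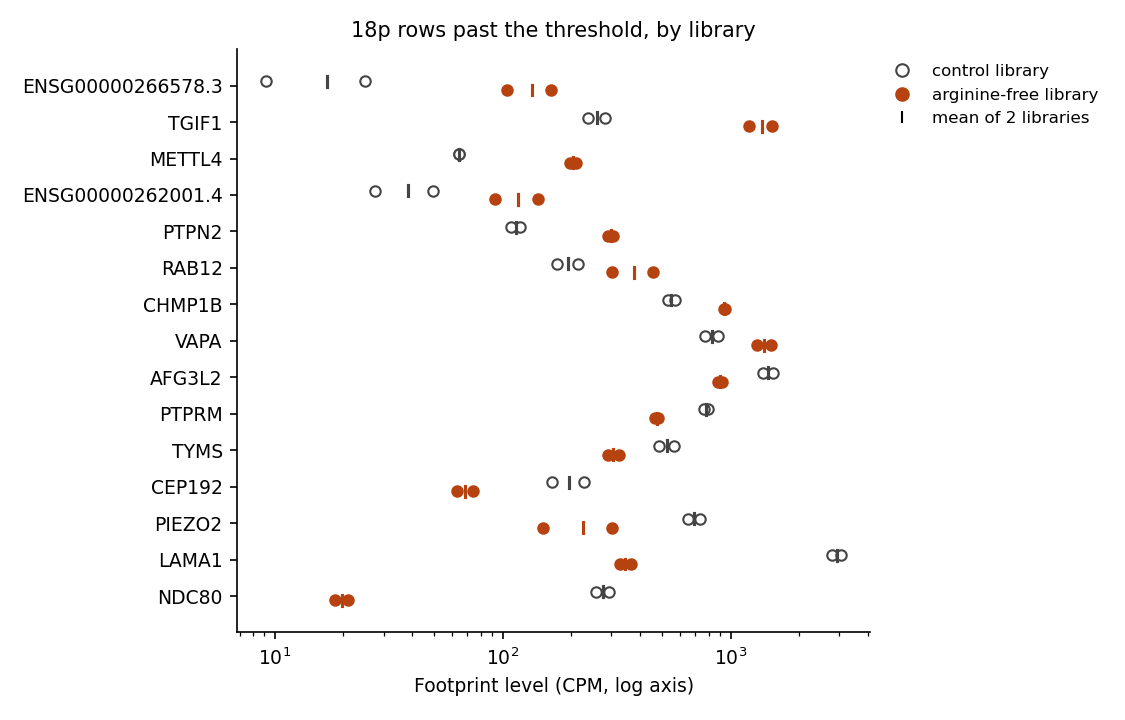
Footprint level in CPM (horizontal log axis) of the 15 rows of 18p past the threshold, with 2 control libraries (open circles), 2 arginine-free libraries (filled circles) and the mean of each group (bars). In none of the 15 rows do the circles of the groups overlap, but the rows were picked by a test on these same libraries. Over all tested rows of the table, 31.9% had arginine-free libraries above control without overlap and 31.4% below.

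Genes of DNA synthesis and mitosis gave 3 of the 7 lower rows. Levels are given as CPM, reads scaled to a common library total over the tested rows with TMM factors. NDC80, of the outer kinetochore (chr18:2571557-2616635), had 28 and 59 reads in control replicates 1 and 2 and 5 and 3 in arginine-free replicates 1 and 2, which is 256 and 292 CPM against 20.9 and 18.4 CPM. Both arginine-free libraries thus lay far under both control libraries, and the row fell by 3.75 on the log2 scale (SE 0.43, edgeR adjusted p = 9.61e-07), which is 13.5-fold lower. The ratio of scaled read totals was 14-fold, with an exact 95% counting interval from 6.82 to 33.5 that covers counting error only. CEP192, a scaffold that centrosomes need to grow before mitosis (chr18:12991362-13125050), had 165 and 228 CPM in control and 62.8 and 73.7 CPM in arginine-free libraries. The groups did not overlap, and CEP192 fell by 1.57 on the log2 scale (SE 0.37, edgeR adjusted p = 0.00308).

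Thymidylate synthase, TYMS (chr18:657653-673578), had 567 and 486 CPM in control and 322 and 289 CPM in arginine-free medium. The groups were apart, and the row fell by 0.77 on the log2 scale (SE 0.25, edgeR adjusted p = 0.0238). Only 33.5% of its exon bases belong to no other row, since 60% of them overlap ENOSF1 on the opposite strand and counting was not by strand. ENOSF1, an enzyme of mitochondria, had 101 and 99.1 CPM in control and 37.7 and 92.2 CPM in arginine-free libraries (log2 fold change -0.70, SE 0.48, edgeR adjusted p = 0.302), and leaving out arginine-free replicate 1 gave -0.09 while leaving out replicate 2 of that group gave -1.36. SMCHD1, which helps silence the inactive X chromosome, did not pass at a log2 fold change of 0.48 (SE 0.23), nor did the centriole protein CEP76 at 0.61 (SE 0.41). CEP76 held 4 and 30 reads in control and 37 and 27 in arginine-free libraries, and its log2 fold change was 0.07 without control replicate 1 and 2.06 without control replicate 2, where it passed (edgeR adjusted p = 0.0402). Of the 6 genes of this list, all of them tested, 3 were lower, none was higher and 3 did not pass, and the median log2 fold change was -0.73. ENOSF1 is counted in this list although its role is given as mitochondrial. Beside this and each later list stand 13% higher and 13.7% lower over all tested rows. The lists were drawn up with earlier results of these data known, and none was tested as a set.

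In the same list the NDC80 call held in all 15 alternative settings, with log2 fold changes from -3.90 to -3.66. The CEP192 call ended with DESeq2 (adjusted p = 0.0853) and on leaving out control replicate 2 (edgeR adjusted p = 0.103) or arginine-free replicate 2 (0.0563), in a range from 0.00132 to 0.103. The TYMS call ended in 6 of 15 settings, among them the fits without control replicate 1, control replicate 2 and arginine-free replicate 2 (edgeR adjusted p = 0.181, 0.0975 and 0.0925), in a range from 0.0149 to 0.226.

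METTL4, a methyltransferase of adenine (chr18:2537525-2571509), had 64 and 64.4 CPM in control and 197 and 209 CPM in arginine-free libraries. The 4 libraries fell into separate groups, and METTL4 rose 3.12-fold (log2 fold change 1.64, SE 0.37, edgeR adjusted p = 0.00225). Its neighbour NDC80, which starts 48 bases away, moved the other way in the same libraries. With 0.5 added to each read count, the log2 ratio of METTL4 to NDC80 reads was -1.93 and -2.14 in control replicates 1 and 2 and 3.11 and 3.30 in arginine-free replicates 1 and 2. An exact two-sided permutation test of that ratio gave p = 0.333, the smallest that 2 libraries against 2 can give and the same as in the other 2 pairs described next.

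The METTL4 call ended with DESeq2 (adjusted p = 0.0554) and without control replicate 1 or 2 (edgeR adjusted p = 0.0503 and 0.0562), over a range from 0.000624 to 0.0562. The arm has 2 other pairs of tested rows on opposite strands whose starts lie within 1000 bases, and neither gene of either pair passed. FAM210A, of mitochondria, and the mRNA cap methyltransferase RNMT start 68 bases apart, at 1052 ± 78.5 and 996 ± 63.0 CPM in control and 1024 ± 102 and 1244 ± 212 CPM in arginine-free medium (SD, n = 2 each). SPIRE1, which nucleates actin, and PSMG2, a chaperone of proteasome assembly, start 631 bases apart by the ends of their rows. The SPIRE1 window, set by its RefSeq start, ends at 12636602 in a row that ends at 12658107. From that start the pair lies further apart. The log2 fold changes were -0.01 (SE 0.27) for SPIRE1 and 0.27 (SE 0.24) for PSMG2. The log2 ratio of FAM210A to RNMT reads was 0.22 and -0.06 in control and -0.35 and -0.20 in arginine-free libraries, and that of SPIRE1 to PSMG2 was -0.27 and -0.25 against -0.44 and -0.66. The groups were thus apart in all 3 pairs (exact two-sided permutation p = 0.333 in each). As this is the smallest p possible here, the test cannot set any pair apart from the others. METTL4 and NDC80 each had groups apart, in opposite directions, so the groups of their ratio had to be apart.

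**Figure D4:**
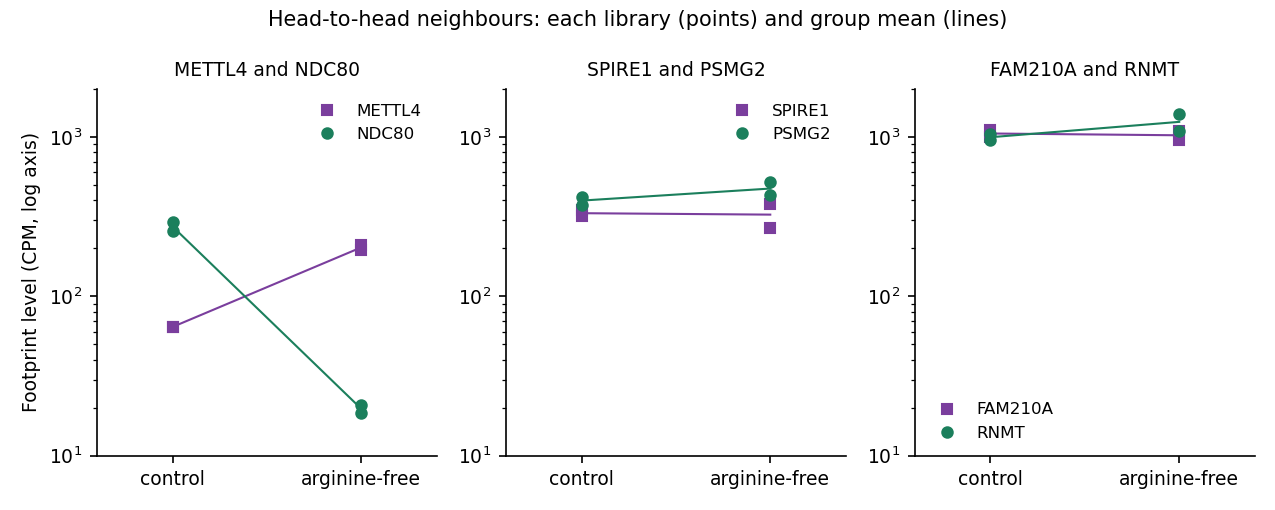
Footprint level in CPM (vertical log axis) by medium for the 3 pairs of 18p that are head to head by row ends. A point stands for each library, and lines join the means of 2 libraries. The lines of METTL4 and NDC80 cross, while the genes of the other 2 pairs did not pass the threshold.

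Other genes of mRNA processing and the nuclear pore differed less. SEH1L, a subunit of the nuclear pore and of the GATOR2 complex that relays amino acid levels to mTORC1, had 357 and 491 CPM in control and 691 and 614 CPM in arginine-free libraries. Both arginine-free libraries lay above both controls, but its log2 fold change of 0.60 (SE 0.24) did not pass (edgeR adjusted p = 0.0664). THOC1, of the complex that couples transcription to mRNA export, varied between control libraries, at 82.3 and 263 CPM, with 180 and 111 CPM in arginine-free medium. Its log2 fold change of -0.33 (SE 0.40) turned to 0.80 without control replicate 2. Over the 4 genes of this list 1 was higher, METTL4, none was lower, and the median log2 fold change was 0.46.

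Genes of the matrix and the cell surface gave the other large decreases. LAMA1, the alpha chain of laminin-111 in basement membranes (chr18:6941742-7117797), had 304 and 617 reads in control replicates 1 and 2 and 87 and 53 in arginine-free replicates 1 and 2. On the CPM scale these were 2781 and 3057 against 364 and 326. The groups lay far apart, and LAMA1 fell by 3.08 on the log2 scale (SE 0.25, edgeR adjusted p = 8.6e-09), which is 8.43-fold lower. Per kilobase of exon LAMA1 was the fifth highest of the 45 rows in control medium, at 303 CPM per kilobase, and it stood at 35.8 CPM per kilobase in arginine-free medium. Exon lengths include untranslated bases, so this order also depends on untranslated length. They include bases shared with other rows too, such as the 60% of TYMS shared with ENOSF1, and the order without shared bases was not tested. The call held in all 15 alternatives, with log2 fold changes from -3.23 to -2.97.

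PIEZO2, a mechanically gated ion channel (chr18:10670241-11149569), had 650 and 733 CPM in control and 151 and 301 CPM in arginine-free libraries. The arginine-free libraries differed from each other but both lay under the controls, and PIEZO2 fell by 1.66 on the log2 scale (SE 0.28, edgeR adjusted p = 0.000159). Leaving out arginine-free replicate 1 gave -1.19, leaving out the other gave -2.18, and the call held in all 15 alternatives. PTPRM, a receptor tyrosine phosphatase of cell contacts (chr18:7566782-8406861), had 796 and 768 CPM in control and 481 and 467 CPM in arginine-free libraries. This smaller difference passed too, and PTPRM fell by 0.72 on the log2 scale (SE 0.22, edgeR adjusted p = 0.0208).

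The PTPRM call ended in 6 of 15 settings, among them the fits without control replicate 1, control replicate 2 and arginine-free replicate 2 (edgeR adjusted p = 0.135, 0.121 and 0.0677), in a range from 0.0137 to 0.194. EPB41L3, a membrane-cytoskeleton linker, moved the other way, at 201 and 287 CPM in control and 339 and 461 CPM in arginine-free libraries, and did not pass (log2 fold change 0.66, SE 0.28, edgeR adjusted p = 0.0872). The log2 fold change was -0.38 for both the matrix protein EMILIN2 (SE 0.48) and TWSG1 (SE 0.46), a secreted regulator of BMP signalling. Of the 10 genes of this list 6 were tested, of which 3 were lower, none was higher and 3 did not pass, with a median log2 fold change of -0.55. Of the 4 that could not be tested, APCDD1 was at 0 and COLEC12, LDLRAD4 and TMEM200C held 16, 8 and 3 reads.

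Among genes of signalling and transcription 2 rose. TGIF1, the repressor of TGF-beta and retinoid responses (chr18:3411927-3459978), had 26 and 57 reads in control replicates 1 and 2 and 289 and 248 in arginine-free replicates 1 and 2. As levels these were 238 and 282 CPM against 1210 and 1524 CPM. Each arginine-free library was well above both controls, and TGIF1 rose 5.17-fold (log2 fold change 2.37, SE 0.25, edgeR adjusted p = 3.13e-07), with values from 2.22 to 2.54 over the 15 alternatives, all past the threshold. PTPN2, a phosphatase that switches off JAK and STAT signalling (chr18:12785478-12884338), had 119 and 109 CPM in control and 306 and 289 CPM in arginine-free libraries. The replicates agreed closely and PTPN2 rose 2.62-fold (log2 fold change 1.39, SE 0.32, edgeR adjusted p = 0.00254).

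The PTPN2 call held with DESeq2 (adjusted p = 0.0495) and ended without control replicate 1 or 2 (edgeR adjusted p = 0.0572 and 0.0822), in a range from 0.000589 to 0.0822. YES1, a kinase of the SRC family, had 274.5 and 203 CPM in control and 431 and 326 CPM in arginine-free libraries, a log2 fold change of 0.71 (SE 0.28) that did not pass (edgeR adjusted p = 0.0691). The log2 fold change was -0.04 (SE 0.33) for DLGAP1, a scaffold of synapses, 0.08 (SE 0.38) for ANKRD12, a partner of nuclear receptor coactivators, and 0.51 (SE 0.49) for PPP4R1, a regulatory subunit of a protein phosphatase. It was 0.34 (SE 0.50) for LPIN2, a phosphatidate phosphatase, -0.56 (SE 0.69) for IMPA2, an inositol monophosphatase, and -0.27 (SE 0.58) and 0.13 (SE 0.61) for the nuclear proteins ZBTB14 and L3MBTL4, none of which passed. Single control libraries set several of these values. On leaving out control replicate 1 and control replicate 2 in turn, ANKRD12 went to -0.33 and 0.86 and ZBTB14 to 0.39 and -1.0, and IMPA2 stood at -1.40 without control replicate 2. Of the 11 genes of this list 10 were tested, of which 2 were higher, none was lower and 8 did not pass, with a median log2 fold change of 0.24.

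Membrane traffic gave 3 higher rows of similar size. VAPA, which tethers the endoplasmic reticulum to other membranes (chr18:9914016-9960021), had 768.5 and 882 CPM in control and 1511 and 1302 CPM in arginine-free libraries. CHMP1B, of the ESCRT-III complex that cuts membrane necks (chr18:11851413-11854444), had 531 and 570 CPM in control and 942 and 934 CPM in arginine-free libraries. RAB12, a small GTPase linked to the turnover of the transferrin receptor (chr18:8609437-8639383), had 174 and 213 CPM in control and 456 and 301 CPM in arginine-free libraries. In each of the 3 genes both arginine-free libraries lay above both controls. VAPA rose 1.70-fold (log2 fold change 0.76, SE 0.23, edgeR adjusted p = 0.0151), CHMP1B also 1.70-fold (0.76, SE 0.22, edgeR adjusted p = 0.014) and RAB12 1.95-fold (0.96, SE 0.30, edgeR adjusted p = 0.0188).

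These 3 calls all ended with DESeq2 (adjusted p = 0.0783, 0.108 and 0.164), with factors from 18p rows alone (edgeR adjusted p = 0.0851, 0.0837 and 0.0594), without control replicate 1 (0.204, 0.166 and 0.22) and without control replicate 2 (0.126, 0.143 and 0.133). With library totals alone in place of TMM factors the calls of VAPA and CHMP1B ended as well (edgeR adjusted p = 0.0506 and 0.0549). That of RAB12 also ended without arginine-free replicate 1 (edgeR adjusted p = 0.139), and over all alternatives the p reached down to 0.00654, 0.0053 and 0.00934. The log2 fold change was -0.07 (SE 0.36) for NAPG, which helps take apart SNARE complexes, and 0.26 (SE 0.55) for the GTPase RAB31, which went to -0.25 without control replicate 1 and 1.63 without control replicate 2. MPPE1, at -0.71 (SE 0.49), shares 59.9% of its exon bases with GNAL, which held 1 read. Of the 8 genes, all tested, 3 were higher, none was lower, and the median was 0.13.

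**Figure D5:**
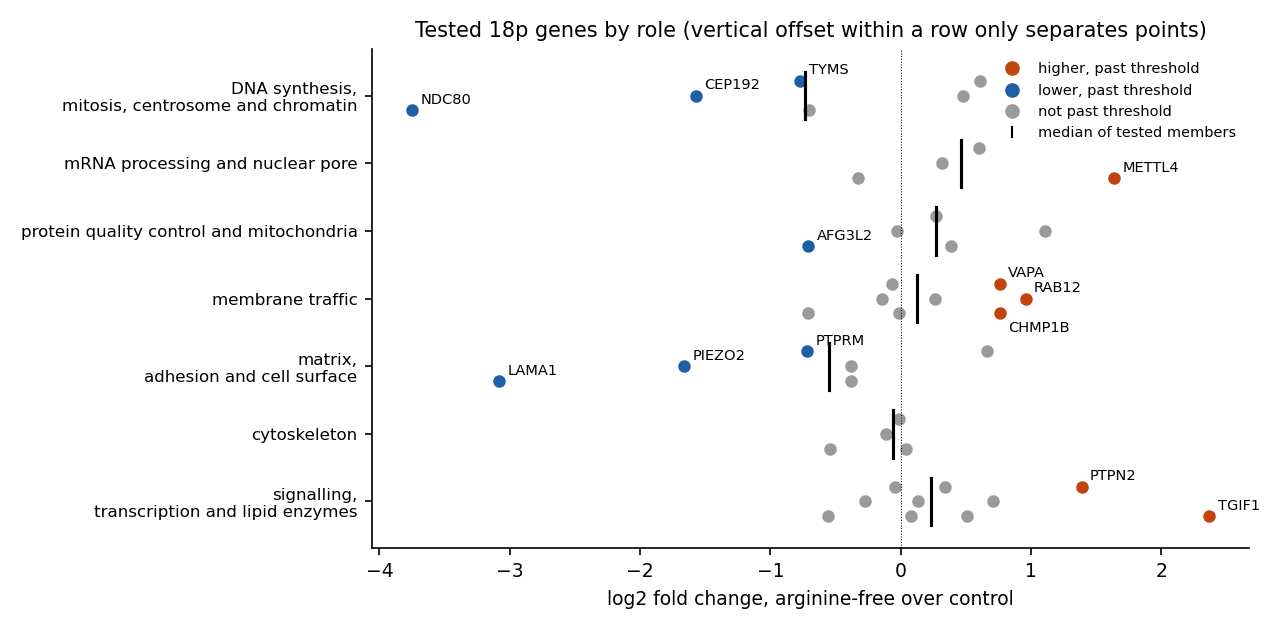
Log2 fold change, arginine-free over control (horizontal axis), of the tested 18p genes in each of 7 lists by role, with calls in colour and the median of the tested members as a bar. Lower calls lie in the lists of DNA synthesis and mitosis, of protein quality control, and of matrix and cell surface, and higher calls in those of mRNA processing, membrane traffic and signalling. Over all tested rows 13% were called higher and 13.7% lower, and no list was tested as a set.

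Protein quality control and mitochondria had 1 lower row. AFG3L2, a subunit of the protease of the inner mitochondrial membrane (chr18:12328944-12377227), had 1391 and 1536 CPM in control and 879 and 915 CPM in arginine-free libraries. The groups did not overlap, and AFG3L2 fell by 0.71 on the log2 scale (SE 0.22, edgeR adjusted p = 0.0213). Its call ended without control replicate 1, control replicate 2 or arginine-free replicate 2 (edgeR adjusted p = 0.101, 0.167 and 0.0643), with a minimum of 1 read in all (0.0952) and with DESeq2 (adjusted p = 0.128), in a range from 0.011 to 0.167. USP14, a deubiquitinase of the proteasome, had 915 and 793 CPM in control and 1193 and 1026 CPM in arginine-free libraries, and did not pass (log2 fold change 0.39, SE 0.22, edgeR adjusted p = 0.216).

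FAM210A, PSMG2 and PRELID3A, a carrier of phospholipid between mitochondrial membranes, did not pass either, at -0.03 (SE 0.22), 0.27 (SE 0.24) and 1.11 (SE 0.70). Of the 6 genes of this list 5 were tested, with 1 lower, none higher and a median of 0.27. The sixth, NDUFV2, a core subunit of respiratory complex I, held 3 reads in all, with 57.4% of its exon bases in no other row.

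The cytoskeleton list had no call among 4 tested genes, and its median was -0.06. MYL12B and MYL12A, regulatory light chains of non-muscle myosin, had the highest levels per length of the 45 rows in control medium. These were 948 and 619 CPM per kilobase of exon, with untranslated bases and bases shared with other rows included in the lengths of all 45 rows. MYL12B had 1382 and 1913 CPM in control and 1783 and 1616 CPM in arginine-free libraries, and MYL12A had 750 and 733 against 858 and 608 CPM. The groups overlapped in both genes, with log2 fold changes of 0.04 (SE 0.23) and -0.01 (SE 0.23), edgeR adjusted p = 0.919 and 0.987. These are neighbouring and near-identical copies, so how reads were divided between them is uncertain. TUBB6, a beta-tubulin, had 778 and 713.5 CPM in control and 519 and 504 CPM in arginine-free libraries (log2 fold change -0.54, SE 0.22, edgeR adjusted p = 0.0818). MTCL1, which stabilises microtubules, stood at -0.11 (SE 0.31). TUBB6 shares 21.7% of its exon bases with AFG3L2 on the opposite strand.

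Both tested rows without a protein-coding match were higher. The row ENSG00000266578.3 (chr18:3283953-3330984, plus strand) had 1 and 5 reads in control and 39 and 17 in arginine-free libraries. By scaled totals this is 7.23-fold, with an exact 95% counting interval from 3.12 to 20.5, and the log2 fold change was 2.80 (SE 0.56, edgeR adjusted p = 0.000732). It was 3.76 without control replicate 2, and the call held in all 15 alternatives. The row ENSG00000262001.4 (chr18:3594151-3610095, plus strand) lies within the interval of DLGAP1 on the other strand, and had 3 and 10 reads in control and 34 and 15 in arginine-free libraries. With 1.52 (SE 0.48, edgeR adjusted p = 0.0226) as its log2 fold change, it no longer passed without any 1 of the 4 libraries, at edgeR adjusted p of 0.177 and 0.0816 without control replicates 1 and 2 and 0.149 and 0.0568 without arginine-free replicates 1 and 2, in a range from 0.0127 to 0.202.

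In sum of reads, 18p took 2.29% and 2.49% of nuclear reads in control replicates 1 and 2 and 2.40% and 2.00% in arginine-free replicates 1 and 2. The means were 2.39% ± 0.139 and 2.20% ± 0.288 (SD, n = 2 each), and the groups overlapped (exact two-sided permutation p = 0.667, where 0.333 is the smallest possible). Reads at the 45 tested rows made up 98.8% of the 13521 reads on the arm.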

How the data were processed

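Footprint libraries of A375 cells were sequenced as single reads without removal of ribosomal RNA, per the labels' protocols. The deposited values are raw counts per gene. Per the file headers, the authors ran featureCounts 2.0.1 with GENCODE 47 (basic) exons and ignored strand; the -p option for paired reads is also set, and its effect was not tested. Tools in the submitters' processing notes are TopHat2, Bowtie2 2.5.2 and cutadapt, with GRCh37 (hg19) as the build. Exon lengths are the deposited lengths, per the file headers, and include untranslated exons.

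Groups came from sample titles. Rows took a RefSeq symbol (GRCh38.p14) by mutual best overlap of at least 0.5 of the union, a rule chosen after seeing the data. All 3334 rows with 20 or more reads in all were fitted together with edgeR 4.0.16 (R 4.3.3; TMM, quasi-likelihood test, Benjamini-Hochberg adjustment, threshold 0.05), and each SE was taken as |log2 fold change| / sqrt(F). The members and gene lists were chosen with earlier results of these data known. Tested protein-coding rows could be named, with full statistics for rows past the threshold; 1 tested row is not reported here. Alternatives were other factors, other minimums, DESeq2 1.42.0, a block and leaving out each library. On simulated counts for the 3334 rows, 81% of 4-fold and 18% of 2-fold changes were recovered, with 3 calls among unchanged rows. The simulation gave every row the same dispersion, 0.0363, and changed 200 rows, a smaller share than the 26.7% called in the data. These rates may therefore not hold for the data. In the shallowest library 3 counts, the most that a count of 0 allows, are 27.4 CPM, and 12.6 CPM in the deepest. Proteins were not analysed here.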

Additional observations from a re-analysis of the deposited data

How the results depend on the processing

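Over the alternatives, the higher and lower rows of 18p, 8 and 7 in the main test, numbered 3 and 3 with DESeq2 (10.6% called over all rows) and 4 and 4 with the replicate number as a block (replicate block, 16.8% over all rows). They were 5 and 2 among the 17 rows with no exon overlapping another row (41.2%). Among 29 rows with ends at or under 10000000 they were 6 and 4 (34.5%). Fewer rows entered both by construction, and the calls are those of the main test, with 26.7% called over all rows. With factors from 18p rows alone 5 were higher and 7 lower, together 26.7% of 45 rows (25.4% over all rows). With at least 1 read in all, 8 were higher and 4 lower, together 13.6% of 88 rows (9.81% over all rows). Leaving out control replicate 1, control replicate 2 or arginine-free replicate 2 lowered the share called on 18p and over all rows alike. With 1 library left in a group, that library is assumed to vary like those of the other group. The cause of the other changes was not tested. Of 659 values for single rows under these settings, 605 had the same outcome as the main test, 50 lost a call and 4 gained one. No called value changed sign. The 605 include values of rows that passed in neither, and 30 of the 45 tested rows did not pass in the main test. They therefore do not give the share of calls kept. All 50 losses fell on the 15 rows called in the main test, each with 15 alternatives. The 4 gains were EPB41L3, TUBB6, CEP76 and SEH1L, each in 1 setting. LAMA1, NDC80, TGIF1, PIEZO2 and ENSG00000266578.3 passed in all 15. The block ended the calls of TYMS, PTPRM, AFG3L2, VAPA, CHMP1B, RAB12 and ENSG00000262001.4. The replicate numbers were not shown to pair the libraries. Over 1109 rows the differences between replicates 1 and 2 in the 2 media correlated at -0.146. A crossed block called 9 higher and 7 lower, together 35.6% of 45 rows against 26.7% over all rows. That block and the factors from 18p rows alone were added after seeing the data. The 18p share of nuclear reads differed by -0.188 percentage points between media, from -0.392 to 0.0152 without single libraries, the sign turning without arginine-free replicate 2. The planned relation to the arginine content of the proteins was not run, because protein sequences were not used here.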

Other observations

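Among rows of 18p under 20 reads, some had more reads in arginine-free libraries, with no test read from them. These are raw reads not scaled for depth, and library totals were 105004 and 217989 in control against 234766 and 192006 in arginine-free replicates 1 and 2. COLEC12, a scavenger receptor of the collectin family, held 1 and 1 reads in control replicates 1 and 2 and 7 and 7 in arginine-free replicates 1 and 2. The long non-coding RNA row GACAT2 held 1 and 2 against 4 and 11 reads, and DLGAP1-AS1, which lies in the interval of DLGAP1, held 2 and 2 against 5 and 5. LDLRAD4, a membrane regulator of TGF-beta signalling, held 2 reads in each of the 4 libraries. Some rows went the other way, such as L3MBTL4-AS1 with 0 and 4 reads against 0 and 0, and ARHGAP28 with 3 and 0 against 1 and 1.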
